A study of Mus musculus with 12 samples.

Results

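The Notch receptors and their ligands were described as a set of 8 genes, the receptors Notch1, Notch2, Notch3 and Notch4 and the ligands Jag1, Jag2, Dll1 and Dll4, chosen by name as a gene family. All 8 were found by gene symbol among the 55414 gene identifiers of the count tables, and 6 of the 8 passed the filter on low counts, against 13403 of all genes. The libraries were 12 bulk mRNA-seq libraries of mouse osteoclasts, the multinucleated bone-resorbing cells that form from myeloid precursors. Bone marrow was taken from male mice aged 7 to 8 weeks and grown into bone marrow macrophages with the growth factor M-CSF at 30 ng/ml. From day 3 they received M-CSF together with RANKL, which turns macrophages into osteoclasts, for 4 days.

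The 4 genotype groups held 3 libraries each, which the labels call biological replicates: Notch2 mutant with Hes1 deletion, Notch2 mutant with Hes1 loxP, wild type with Hes1 deletion, and wild type with Hes1 loxP. No group is labelled as carrying an unmodified Hes1 gene, since the groups without the deletion carry Hes1 loxP. Mutant and control mice were littermates of the same sex. The labels do not say whether the replicates are separate mice, and p-values measure the spread between these libraries. The labels name neither the Notch2 mutation nor the strain, and they do not say how or in which cells Hes1 was deleted. The comparisons ask how the Notch2 mutation and the loss of Hes1, a transcriptional repressor that Notch signalling induces, alter osteoclast RNA, and the single-cell data mentioned in the study's design were not analysed here. The counts cannot separate RNA of a mutant Notch2 allele from that of the normal one.

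Notch receptors are single-pass membrane proteins that are activated when a ligand of the Jagged or Delta-like family on a neighbouring cell binds to them. Binding exposes the receptor to cleavage, first by an ADAM protease and then by gamma-secretase, and the released intracellular domain enters the nucleus, binds RBPJ and switches on target genes such as those of the Hes and Hey families. In the osteoclast lineage of the mouse, Notch2 is known to favour osteoclast formation, whereas Notch1 and Notch3 have been described as restraining it.

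RBPJ binds DNA at a core written TGGGAA, and HES proteins repress genes through sites of the type CACGNG and the N box CACNAG. Promoter windows of 250 bases ahead of the RefSeq transcription start (RefSeq, build GRCm38.p6) were available for all 8 genes and were searched for the 3 motifs on both strands. Windows are shown for Notch2 and Jag1, the most abundant receptor and ligand in these cells, and for Notch1 and Dll4, the genes with the clearest separation between groups of libraries. They are written 5′ to 3′ on the strand of the gene, with matches to CACGNG or CACNAG, or to their reverse complements, in capitals.
Notch2, chr3:98013288-98013537, plus strand: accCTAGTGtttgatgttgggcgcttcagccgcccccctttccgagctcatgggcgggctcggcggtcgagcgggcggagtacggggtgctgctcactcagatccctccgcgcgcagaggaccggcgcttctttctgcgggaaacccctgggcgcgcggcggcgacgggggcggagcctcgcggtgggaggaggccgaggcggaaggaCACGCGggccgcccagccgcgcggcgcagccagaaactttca
Notch1, chr2:26503823-26504072, minus strand: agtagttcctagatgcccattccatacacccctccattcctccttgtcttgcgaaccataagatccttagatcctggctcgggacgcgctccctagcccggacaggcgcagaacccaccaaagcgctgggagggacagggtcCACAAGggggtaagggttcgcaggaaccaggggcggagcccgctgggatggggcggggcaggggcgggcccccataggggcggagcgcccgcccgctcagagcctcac
Jag1, chr2:137116521-137116770, minus strand: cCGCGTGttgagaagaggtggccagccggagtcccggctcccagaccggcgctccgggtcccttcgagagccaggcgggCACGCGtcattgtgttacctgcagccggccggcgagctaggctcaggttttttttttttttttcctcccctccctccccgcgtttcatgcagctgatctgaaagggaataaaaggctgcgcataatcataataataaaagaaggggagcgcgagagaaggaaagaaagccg
Dll4, chr2:119325534-119325783, plus strand: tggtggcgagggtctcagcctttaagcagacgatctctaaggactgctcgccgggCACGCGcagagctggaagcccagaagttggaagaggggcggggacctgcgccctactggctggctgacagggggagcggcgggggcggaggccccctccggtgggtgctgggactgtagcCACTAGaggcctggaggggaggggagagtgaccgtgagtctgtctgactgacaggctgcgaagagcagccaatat
The Jag1 window held 2 CACGNG matches and no N box. The Notch2 and Dll4 windows each held 1 match of either kind, and the Notch1 window held 1 N box only. No matches overlapped in these 4 windows. Among 32851 RefSeq windows of the same length, 23.5% held CACGNG and 36.7% held CACNAG. The RBPJ core TGGGAA occurred in 21.6% of those windows and in none of the windows of the 8 genes. These are letter matches and do not show binding. The annotation used for naming was GENCODE M21. The Notch1 and Jag2 windows, and 1 window of Dll1, lie wholly inside the annotated gene body. These windows are therefore not the ones ahead of the outermost annotated transcript. The Notch2, Notch4 and Jag1 windows reach partly into the annotated gene body.

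The libraries held between 13832368 and 19293772 counts assigned to genes. Hes1, the deleted gene, was counted 0, 1 and 1 times in the Notch2 mutant Hes1 deletion libraries and 3, 2 and 2 times in the Notch2 mutant Hes1 loxP libraries, and 0, 0 and 2 times in the wild type Hes1 deletion libraries against 6, 11 and 6 times in the wild type Hes1 loxP libraries. The deletion libraries were all below the loxP libraries of the same Notch2 genotype, at counts too low for the fitted test. At the same low counts, the Notch2 mutant Hes1 loxP libraries were all below the wild type Hes1 loxP libraries. Between these loxP groups 18.3% of all genes tested did not overlap in either direction. All 11 osteoclast markers had counts in every group, with sums between 31513 and 50598 CPM (the count of a gene scaled to equal library totals) over the libraries. Most of each sum came from Mmp9, Acp5 and Ctsk, which averaged 21317, 7921 and 7323 CPM over the 12 libraries. Wild type Hes1 deletion replicate 3 stood apart most from its own group, with a root mean square deviation of 0.143 on the log2 scale over genes. The Dll4 and Jag2 values for Hes1 deletion over loxP that rest on it are given with and without it. The labels record no batch, and no libraries of a group agreed within sampling noise (chi-square per gene of at least 2.40 between replicates). In bulk RNA, fewer cells of a type and less RNA per cell cannot be told apart.

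Notch2 and Jag1 were the most abundant of the 8 genes, and Notch3 and Dll1 lay close to the limit of detection. Per transcript length, in TPM, the length-scaled share of a library's transcripts, averaged over the 12 libraries, the order was Notch2 at 50.7, Jag1 at 16.3, Notch1 at 5.27, Notch4 at 2.95, Dll4 at 0.681, Jag2 at 0.547, Notch3 at 0.137 and Dll1 at 0.0695 TPM. From Notch2 down through the step between Notch4 and Dll4, the ranges of neighbours over the 12 libraries did not overlap: Notch2 ranged from 43.9 to 54.6 TPM, Jag1 from 14.95 to 17.5, Notch1 from 3.87 to 6.46 and Notch4 from 2.58 to 3.29. Below that step the ranges overlapped between Dll4 and Jag2, between Jag2 and Notch3, and between Notch3 and Dll1, so their order is not resolved. Notch3 summed to 65 counts and Dll1 to 17 counts over all 12 libraries. In GRCm38, as annotated by GENCODE M21, Notch2 lies at chr3:98013527-98150361, Notch1 at chr2:26457903-26516663, Notch3 at chr17:32120820-32166852 and Notch4 at chr17:34564268-34588503. Jag1 lies at chr2:137081456-137116644, Jag2 at chr12:112907819-112929776, Dll1 at chr17:15367354-15376872 and Dll4 at chr2:119325784-119335962. All values count reads over the exons of these genes.

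**Figure D1:**
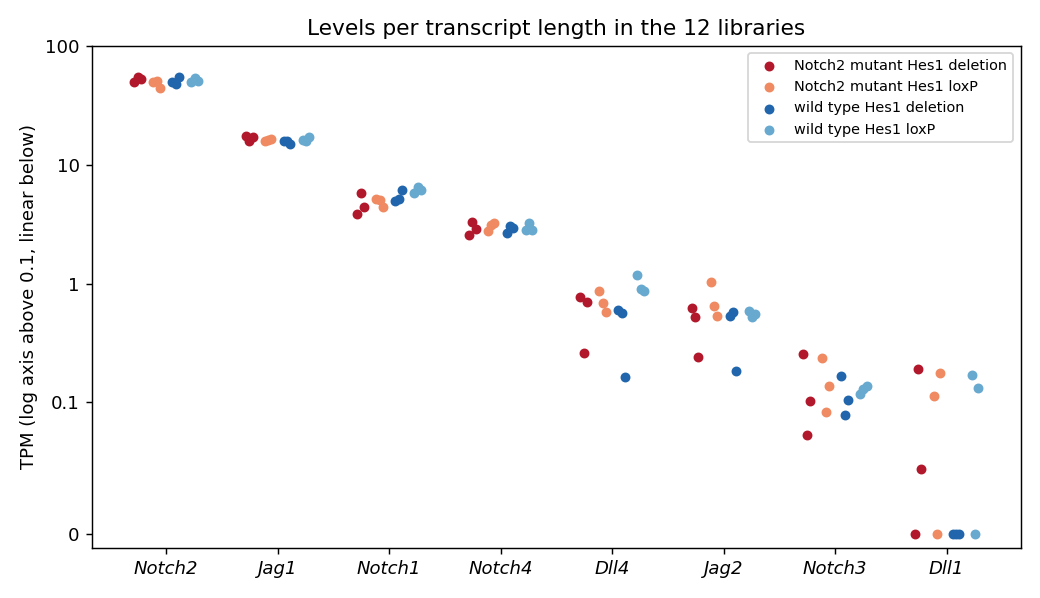
Expression of the 8 genes in TPM (vertical axis, logarithmic above 0.1 and linear below), 1 point per library and 1 colour per genotype group, ordered by mean level. Notch2 lies between 43.9 and 54.6 TPM in all 12 libraries, and Dll1 is at 0 in 6 of them.

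Among the receptors, Notch2 made up 85.8% of the summed TPM on average over the 12 libraries, with a range of 84.6% to 88.2%. Notch1 followed with 8.90%, Notch4 with 5.01% and Notch3 with 0.235%. Among the 4 ligands, Jag1 made up 92.7%, with a range of 88.8% to 97.7%, Dll4 3.83%, Jag2 3.09% and Dll1 0.391%. Notch2 was the main receptor message and Jag1 the main ligand message in every library of every genotype. The summed receptor TPM averaged 60.2 ± 3.55 in Notch2 mutant Hes1 deletion, 56.2 ± 3.92 in Notch2 mutant Hes1 loxP, 59.1 ± 4.07 in wild type Hes1 deletion and 60.6 ± 2.87 in wild type Hes1 loxP libraries (SD, n = 3 each). The summed ligand TPM averaged 18.0 ± 1.06 in Notch2 mutant Hes1 deletion, 17.8 ± 0.246 in Notch2 mutant Hes1 loxP, 16.5 ± 1.01 in wild type Hes1 deletion and 18.0 ± 0.623 in wild type Hes1 loxP libraries (SD, n = 3 each). Both sums overlapped between all groups apart from the ligand sum of wild type Hes1 deletion, which lay below that of the loxP libraries of either Notch2 genotype.

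None of the 6 genes that passed the filter met an adjusted p under 0.05 in any of the 7 comparisons (edgeR quasi-likelihood test with Benjamini-Hochberg adjustment over all 13403 genes, two-sided). For Notch2 mutant against wild type with Hes1 loxP, 0.776% of all genes were called. Of the 6, 1, Notch1, had an unadjusted p under 0.05 with edgeR and with DESeq2, and DESeq2 called none of the set. Of all 13403 genes, 1897 had an unadjusted p under 0.05 with edgeR. For Notch2 mutant against wild type with Hes1 deletion, where 0.0149% of genes were called, none of the 6 had an unadjusted p under 0.05 with either tool. With edgeR 897 of all genes did. With both Hes1 states averaged, 1.89% of genes were called, and Notch1 again had an unadjusted p under 0.05 with both tools and was called by neither. An unadjusted p under 0.05 was found for 2180 of all genes with edgeR. For Hes1 deletion against Hes1 loxP, 0.0373% of genes were called in wild type cells and 0.0373% in Notch2 mutant cells. Dll4 had an unadjusted p under 0.05 with both tools in wild type cells, and no gene of the set did with either tool in Notch2 mutant cells. Of all genes, 795 did in wild type cells and 638 in Notch2 mutant cells with edgeR. With both Notch2 genotypes averaged, 0.0821% of genes were called and Dll4 had an unadjusted p under 0.05 with edgeR only, as had 923 of all genes with edgeR. Nothing about the set as a whole is read from 1 in 6 at an unadjusted p under 0.05. For the interaction, the difference between the Notch2 effects in the 2 Hes1 states, 0% of genes were called: edgeR and DESeq2 called no gene at all, while 506 and 377 genes had an unadjusted p under 0.05, none of them in the set.

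Separation of the groups library by library was also looked at for all 8 genes. In Notch2 mutant against wild type with Hes1 loxP, the libraries of the groups did not overlap in CPM for 1 of the 8, Notch1, against 18.3% of all genes tested. In Hes1 deletion against loxP in wild type cells, they did not overlap for 1 of the 8, Dll4, against 10.9% of genes. They overlapped for all 8 in Notch2 mutant against wild type with Hes1 deletion, against 12.4% of genes without overlap, and in Hes1 deletion against loxP in Notch2 mutant cells, against 11.0%. With 6 libraries on each side they overlapped for all 8 for Notch2 mutant against wild type and for Hes1 deletion against loxP, where 1.51% and 0.433% of genes did not overlap. A count of 1 in 8 is close to the share of all genes, so nothing about the set as a whole is read from these counts.

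**Figure D2:**
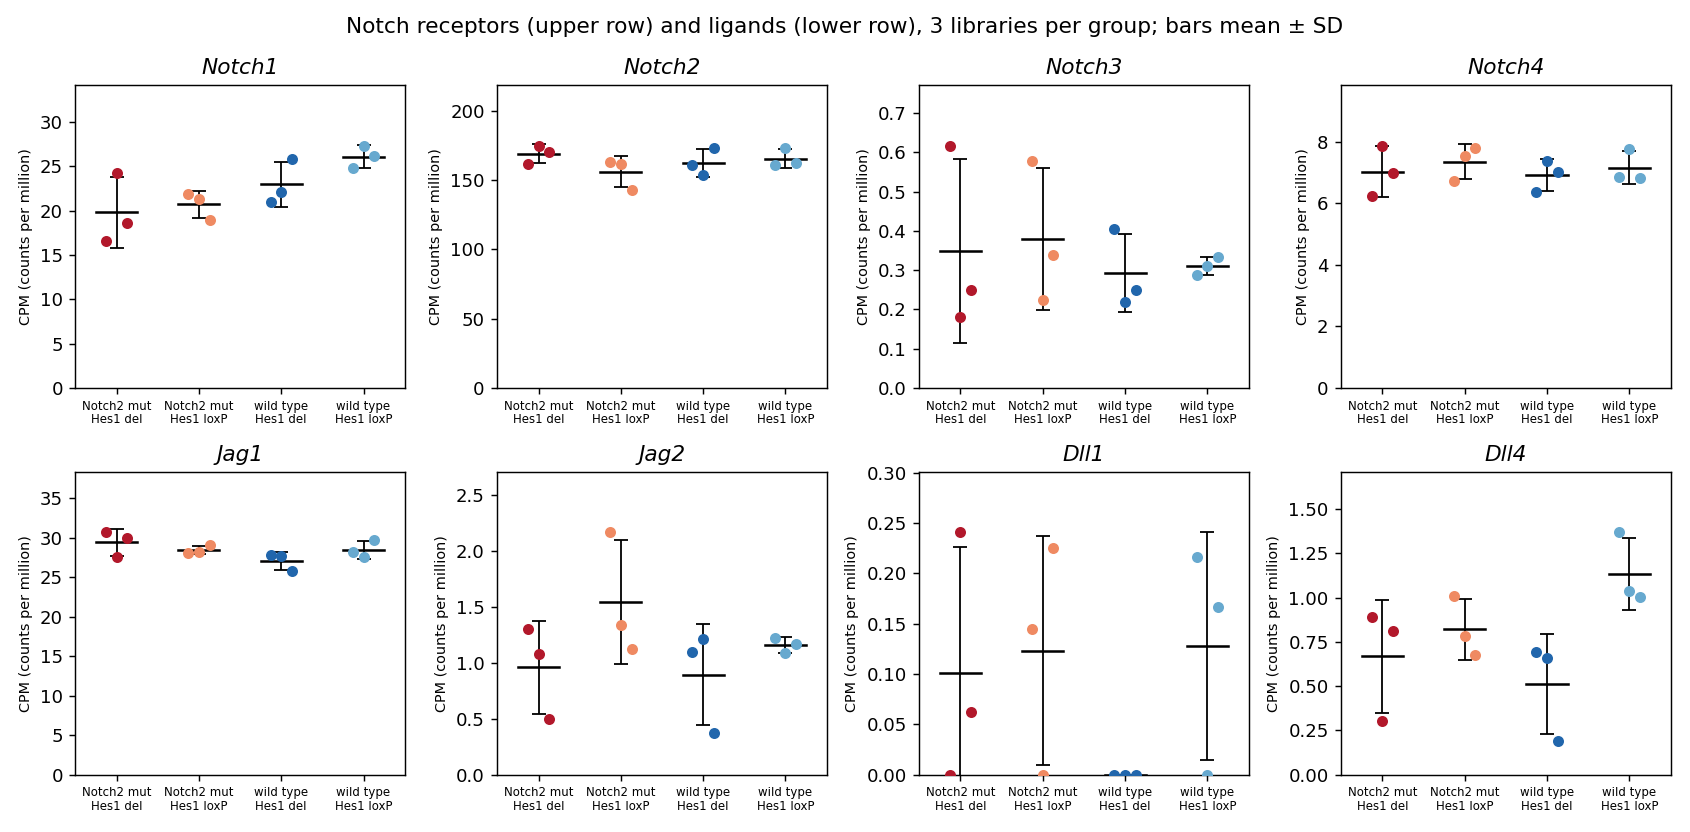
CPM (vertical axes, each starting at 0) of the 4 receptors in the upper row and the 4 ligands in the lower row for the 4 genotype groups, 1 point per library, with bars for mean ± SD (n = 3) that are cut at 0 for Dll1. Notch1 lies between 24.8 and 27.4 CPM in wild type Hes1 loxP and between 19.0 and 21.9 CPM in Notch2 mutant Hes1 loxP, and Dll4 is above 1 CPM in all 3 wild type Hes1 loxP libraries.

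Notch2, the predominant receptor and the mutated gene, differed in RNA level between mutant and wild type cells by less than the spread between libraries. It measured 162, 175 and 171 CPM in Notch2 mutant Hes1 deletion, 163, 162 and 143 CPM in Notch2 mutant Hes1 loxP, 161, 153 and 173 CPM in wild type Hes1 deletion, and 161, 173 and 163 CPM in wild type Hes1 loxP. All 4 groups overlapped, and the lowest library was Notch2 mutant Hes1 loxP replicate 3. The log2 fold change of Notch2 mutant over wild type was -0.06 ± 0.06 with Hes1 loxP (SE; 95% interval -0.18 to 0.05) and 0.07 ± 0.06 with Hes1 deletion (95% interval -0.05 to 0.19). Averaged over both Hes1 states it was 0.00 ± 0.04, and the 95% interval of -0.08 to 0.08 corresponds to a ratio of 0.946 to 1.06 (adjusted p = 0.984, edgeR). Hes1 deletion over loxP gave 0.02 ± 0.04 averaged over both genotypes, with an interval of -0.06 to 0.10.

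Notch1, the second most abundant receptor, had the lowest levels in Notch2 mutant cells and the highest in wild type Hes1 loxP cells. It measured 16.5, 24.3 and 18.6 CPM in Notch2 mutant Hes1 deletion, 21.9, 21.3 and 19.0 CPM in Notch2 mutant Hes1 loxP, 20.9, 22.1 and 25.9 CPM in wild type Hes1 deletion, and 24.8, 27.4 and 26.2 CPM in wild type Hes1 loxP. With Hes1 loxP every Notch2 mutant library lay below every wild type library, whereas with Hes1 deletion the groups overlapped through mutant replicate 2. The group means were 19.8 ± 4.02 and 20.7 ± 1.53 CPM in the Notch2 mutant deletion and loxP groups, and 23.0 ± 2.58 and 26.1 ± 1.29 CPM in the wild type deletion and loxP groups (SD, n = 3 each).

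With Hes1 loxP the log2 fold change of Notch1 in Notch2 mutant over wild type cells was -0.31 ± 0.11 (SE), a ratio of 0.805 with a 95% interval of 0.685 to 0.945, with unadjusted p = 0.0111 and adjusted p = 0.199 (edgeR). Averaged over both Hes1 states it was -0.25 ± 0.08, with a 95% interval of -0.42 to -0.09, unadjusted p = 0.00491 and adjusted p = 0.103 (edgeR), short of the threshold. The averaged value became a call without Notch2 mutant Hes1 deletion replicate 2, at -0.34 and adjusted p = 0.0202, and without the filter on low counts (adjusted p = 0.00462), which also called it with Hes1 loxP (adjusted p = 0.0248, edgeR). Hes1 deletion over loxP gave -0.21 ± 0.11 in wild type cells (95% interval -0.44 to 0.02) and -0.09 ± 0.11 in Notch2 mutant cells (95% interval -0.33 to 0.15). The interaction was 0.12 ± 0.16, with an interval of -0.21 to 0.45, so the Notch2 differences in the Hes1 states were not told apart.

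As a share of Notch2 in the same library, per transcript length, Notch1 amounted to 7.76%, 10.5% and 8.27% in Notch2 mutant Hes1 deletion, 10.2%, 9.97% and 10.1% in Notch2 mutant Hes1 loxP, 9.84%, 10.9% and 11.3% in wild type Hes1 deletion, and 11.7%, 11.96% and 12.2% in wild type Hes1 loxP. The 3 wild type Hes1 loxP libraries were above the other 9. This ratio does not depend on how libraries are scaled, and it is a description without a test. Its size does depend on the gene lengths used, which are the same for every library.

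Marker genes of stromal cells and osteoblasts, neutrophils and osteoclasts also separated the Hes1 loxP groups in which Notch1 separated. The summed level of 15 stromal and osteoblast markers ranged from 117 to 247 CPM in Notch2 mutant Hes1 loxP and from 251 to 296 CPM in wild type Hes1 loxP, with 14 of the 15 counted in each group. That of 8 neutrophil markers ranged from 192 to 248 CPM in the mutant and from 254 to 328 CPM in the wild type group, and that of 11 osteoclast markers from 45900 to 50598 CPM in the mutant and from 39131 to 42077 CPM in the wild type group. The osteoclast sum is mostly Mmp9, Acp5 and Ctsk, so it need not hold for each marker. The same goes for the stromal and osteoblast sum, which is mostly Col1a1, Col1a2, Sparc and Col3a1. These 4 averaged 112, 73.3, 31.1 and 27.2 CPM over the 12 libraries. The mean log2 CPM of the 15 stromal and osteoblast markers, in which each marker weighs alike, was also used as a covariate. It is not the summed level. With it the Notch1 log2 fold change was -0.34 with Hes1 loxP (adjusted p = 0.341) and -0.28 averaged (adjusted p = 0.318, edgeR). Without the covariate the values were -0.31 and -0.25 (adjusted p = 0.199 and 0.103, edgeR). The summed levels of macrophage markers (4315 to 4813 CPM over the libraries), dendritic cell markers (80.6 to 156 CPM) and lymphocyte markers (4.54 to 9.34 CPM) overlapped between all groups. The part of the lists other than the stromal and osteoblast one in the Notch1 values was not tested.

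Notch4, a receptor best known from endothelium, was steady at a low level. Its group means were 7.04 ± 0.820 CPM in Notch2 mutant Hes1 deletion, 7.36 ± 0.568 CPM in Notch2 mutant Hes1 loxP, 6.92 ± 0.510 CPM in wild type Hes1 deletion and 7.15 ± 0.537 CPM in wild type Hes1 loxP (SD, n = 3 each), and all groups overlapped. The log2 fold change was 0.05 ± 0.09 for Notch2 mutant over wild type (95% interval -0.14 to 0.24) and -0.08 ± 0.09 for Hes1 deletion over loxP (95% interval -0.27 to 0.11), each averaged over the other factor. Of 10 endothelial markers, Vwf, Kdr, Esam and Pecam1 were the highest, at 5.97, 2.30, 1.81 and 1.45 CPM on average. Tek and Emcn were counted 1 and 2 times over all libraries, and Cldn5 was at 0. The summed level of the 10 ranged from 11.4 to 16.7 CPM with overlap between all groups.

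Notch3, the receptor of vascular smooth muscle and pericytes, was counted between 3 and 9 times per library. The counts of the 3 libraries summed to 16 in Notch2 mutant Hes1 deletion, 18 in Notch2 mutant Hes1 loxP, 15 in wild type Hes1 deletion and 16 in wild type Hes1 loxP. It was below the filter, and the exact two-sided permutation test of its mean CPM gave p = 0.442 for Notch2 mutant against wild type and p = 0.742 for Hes1 deletion against loxP (6 libraries against 6, all splits, adjusted p = 1 over the 12 tests of the genes below the filter). The ratio of its counts in Notch2 mutant over wild type libraries, scaled to depth, was 1.16 with an exact 95% interval of 0.693 to 1.956. That interval covers counting error only.

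**Figure D3:**
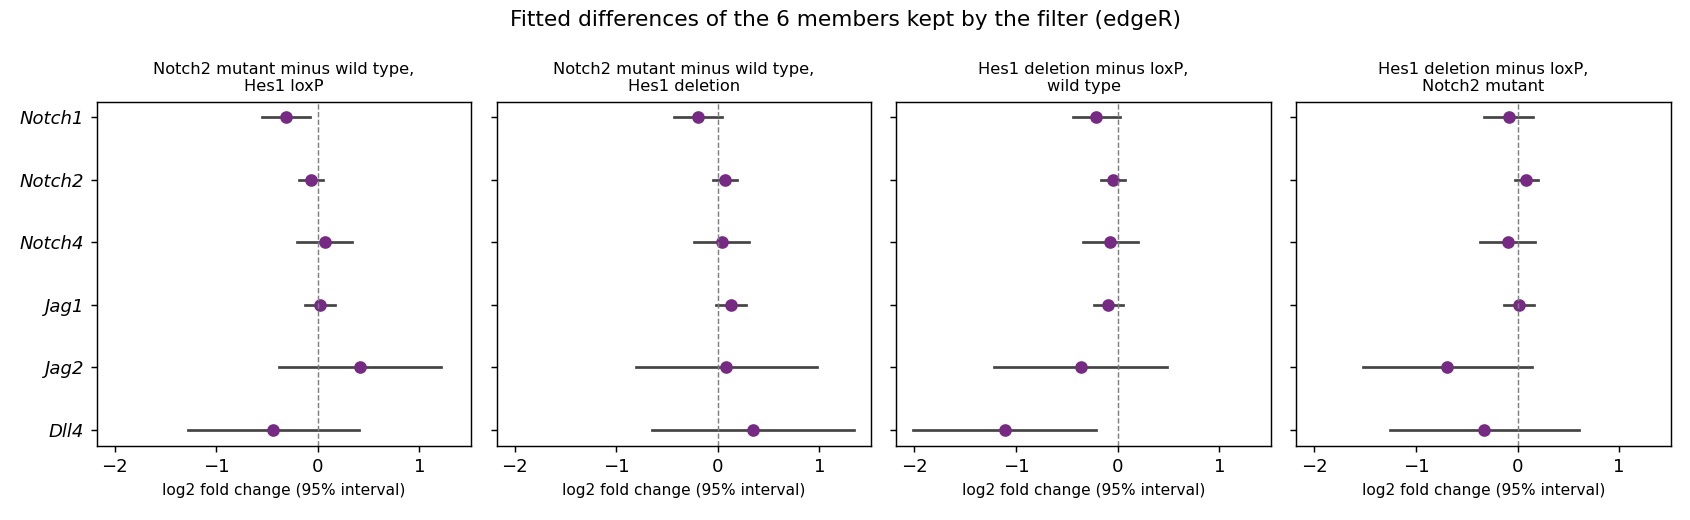
Fitted log2 fold changes (horizontal axes) with 95% intervals of the 6 genes that passed the filter, in the 4 comparisons within one level of the other factor. The interval leaves out 0 for Notch1 in Notch2 mutant against wild type with Hes1 loxP (-0.55 to -0.08) and for Dll4 in Hes1 deletion against loxP in wild type cells (-2.01 to -0.21), and intervals are widest for Jag2 and Dll4.

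Jag1, the main ligand, varied little between genotypes. It measured 30.7, 27.5 and 30.0 CPM in Notch2 mutant Hes1 deletion, 28.1, 28.1 and 29.0 CPM in Notch2 mutant Hes1 loxP, 27.8, 27.7 and 25.8 CPM in wild type Hes1 deletion, and 28.2, 27.5 and 29.7 CPM in wild type Hes1 loxP. Groups that differ in a single factor overlapped in each case. Notch2 mutant over wild type gave a log2 fold change of 0.08 ± 0.05 averaged over both Hes1 states, with a 95% interval of -0.03 to 0.18 and adjusted p = 0.482 (edgeR). Hes1 deletion over loxP gave -0.04 ± 0.05 averaged over both Notch2 genotypes, with an interval of -0.14 to 0.07.

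Dll4, a Delta-like ligand best known from arterial endothelium and the thymus, was rare, and its levels were highest in wild type Hes1 loxP cells. It was counted 13, 5 and 13 times in Notch2 mutant Hes1 deletion, 14, 14 and 12 times in Notch2 mutant Hes1 loxP, 12, 12 and 3 times in wild type Hes1 deletion, and 19, 20 and 18 times in wild type Hes1 loxP. Its mean level was 0.668 ± 0.320 CPM in Notch2 mutant Hes1 deletion, 0.823 ± 0.172 CPM in Notch2 mutant Hes1 loxP, 0.514 ± 0.283 CPM in wild type Hes1 deletion and 1.14 ± 0.203 CPM in wild type Hes1 loxP (SD, n = 3 each). In wild type cells the deletion libraries all lay below the loxP libraries, while in Notch2 mutant cells the groups overlapped.

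The log2 fold change of Dll4 for Hes1 deletion over loxP in wild type cells was -1.11 ± 0.43 (SE), a ratio of 0.463 with a 95% interval of 0.248 to 0.864, with unadjusted p = 0.0185 and adjusted p = 0.750 (edgeR), and it was not a call. Without wild type Hes1 deletion replicate 3, the library with 3 counts, it was -0.74 with adjusted p = 0.652 (edgeR). In Notch2 mutant cells the same comparison gave -0.33 ± 0.44, and averaged over both genotypes -0.72 ± 0.31 with an interval of -1.37 to -0.07 and adjusted p = 0.658 (edgeR). Without wild type Hes1 deletion replicate 3 the averaged value was -0.53 (adjusted p = 0.725, edgeR). The interaction was 0.78 ± 0.62, with an interval of -0.52 to 2.09, and leaving out 1 library at a time gave 0.41 to 1.15. Summed endothelial markers overlapped between wild type deletion, at 11.5 to 14.4 CPM, and wild type loxP, at 11.4 to 14.6 CPM. Stromal and osteoblast markers summed to 332 to 349 CPM in wild type deletion against 251 to 296 CPM in wild type loxP, and osteoclast markers to 31513 to 37736 CPM in wild type deletion against 39131 to 42077 CPM in wild type loxP. Mmp9, Acp5 and Ctsk make up most of the osteoclast sum, so it need not hold for each marker. Likewise, Col1a1, Col1a2, Sparc and Col3a1 make up most of the stromal and osteoblast sum. With the stromal and osteoblast covariate the Dll4 log2 fold change was -1.08 (adjusted p = 0.887, edgeR), and the part of the other lists was not tested.

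Jag2, the second Jagged ligand, was counted 19, 18 and 8 times in Notch2 mutant Hes1 deletion, 30, 24 and 20 times in Notch2 mutant Hes1 loxP, 19, 22 and 6 times in wild type Hes1 deletion, and 17, 21 and 21 times in wild type Hes1 loxP. The low values were replicate 3 of each deletion group, and the deletion and loxP groups overlapped in both Notch2 genotypes. Hes1 deletion over loxP averaged over both Notch2 genotypes gave a log2 fold change of -0.53 ± 0.28, with a 95% interval of -1.12 to 0.07 and adjusted p = 0.762 (edgeR). For Notch2 mutant over wild type it was 0.25 ± 0.28, with an interval of -0.35 to 0.85. Both values depended on single libraries: leaving out 1 library at a time gave -0.67 to -0.35 for Hes1 deletion over loxP and 0.067 to 0.40 for Notch2 mutant over wild type. Without wild type Hes1 deletion replicate 3, the library with 6 counts, they were -0.35 and 0.067. Without Notch2 mutant Hes1 deletion replicate 3, the library with 8 counts, they were -0.37 and 0.40.

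Dll1, a Delta-like ligand, was the rarest of the set. Its counts summed to 5 in Notch2 mutant Hes1 deletion, 6 in Notch2 mutant Hes1 loxP, 0 in wild type Hes1 deletion and 6 in wild type Hes1 loxP. A count of 0 over the 3 wild type Hes1 deletion libraries allows up to 0.0583 CPM, and the wild type Hes1 loxP mean was 0.128 CPM. The exact two-sided permutation test of the mean CPM gave p = 0.4 for wild type deletion against loxP, where 3 libraries against 3 cannot go below 0.1. The ratio of its counts in that comparison had an exact 95% interval of 0 to 0.845, which covers counting error only. Over 6 libraries against 6 the exact permutation test gave p = 0.242 for Hes1 deletion against loxP and p = 0.416 for Notch2 mutant against wild type. Part of Dll1, 20.6% of its exon bases, overlaps the gene A930024N18Rik on the opposite strand. Stretches of Notch1, Notch3 and Dll4 overlap other transcripts on the opposite strand and 5.02% of Notch2 exon bases overlap Gm42820 on the same strand. The kit marks strand, but none of the sources used here states whether the counting used it, and reads of such partners may not be separated.

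Of the genes that modify receptors and ligands with sugars, 8 of 9 were tested and none passed the test in any comparison. Lfng, a Fringe enzyme that changes which ligands a receptor responds to, was abundant at 235 TPM, and its log2 fold change in Notch2 mutant over wild type was 0.09 ± 0.03 averaged over both Hes1 states (adjusted p = 0.167, edgeR). Poglut1, an O-glucosyltransferase, had -0.13 ± 0.05. The median of the list was 0.00, as was that of all genes.

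Of the genes for endocytosis and turnover of ligands and receptors, 18 of 19 were tested, and 1 of the 18, Nedd4, passed the test. It passed for Notch2 mutant against wild type with Hes1 loxP and averaged, where 0.776% and 1.89% of all genes were called. Nedd4, a ubiquitin ligase that can act on Notch receptors, measured 6.38, 4.39 and 4.24 CPM in Notch2 mutant Hes1 deletion, 3.25, 3.13 and 4.11 CPM in Notch2 mutant Hes1 loxP, 9.14, 8.69 and 7.14 CPM in wild type Hes1 deletion, and 7.93, 6.53 and 6.73 CPM in wild type Hes1 loxP. Every Notch2 mutant library was below every wild type library, where 1.51% of all genes tested did not overlap in either direction. It fell in Notch2 mutant cells by 0.98 ± 0.18 on the log2 scale with Hes1 loxP (adjusted p = 0.0160) and by 0.85 ± 0.12 averaged over both Hes1 states (adjusted p = 0.00258, edgeR).

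The Nedd4 call was lost with the stromal and osteoblast covariate, at -0.83 with Hes1 loxP (adjusted p = 0.212) and -0.72 averaged (adjusted p = 0.143, edgeR). Nearly all calls of Notch2 mutant against wild type were lost with this covariate. Over all genes it left 1 called with Hes1 loxP, against 104 without it, and 1 averaged, against 253. The summed stromal and osteoblast markers ranged from 210 to 297 CPM in Notch2 mutant Hes1 deletion against 332 to 349 CPM in wild type Hes1 deletion, besides the Hes1 loxP values given with Notch1. With Hes1 loxP it was also lost without Notch2 mutant Hes1 loxP replicate 2 (-0.89, adjusted p = 0.0699) or without wild type Hes1 loxP replicate 1 (-0.90, adjusted p = 0.0702). The next smallest adjusted p-values of the averaged comparison belonged to the epsin Epn2, an endocytic adaptor, at a log2 fold change of 0.15 ± 0.06 (adjusted p = 0.169), the Deltex family gene Dtx3 at 0.22 ± 0.09 (adjusted p = 0.197) and the ubiquitin ligase Cbl at -0.12 ± 0.05 (adjusted p = 0.249, edgeR), and none of them passed. The median log2 fold change of the list was 0.00 averaged over both Hes1 states.

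Downstream of the receptors, all 10 proteases and all 13 genes of the nuclear complex were tested. No protease passed in any comparison, and Psen2, a catalytic subunit of gamma-secretase, had a log2 fold change of 0.14 ± 0.05 in Notch2 mutant over wild type averaged over both Hes1 states (adjusted p = 0.144, edgeR). In the nuclear complex 1 of 13 passed, Rbpj, the DNA-binding partner of the Notch intracellular domain. Rbpj passed for Notch2 mutant against wild type averaged over both Hes1 states, where 1.89% of all genes were called. It measured 145 ± 4.77 CPM in Notch2 mutant Hes1 deletion, 145 ± 4.26 CPM in Notch2 mutant Hes1 loxP, 160 ± 3.90 CPM in wild type Hes1 deletion and 167 ± 7.16 CPM in wild type Hes1 loxP (SD, n = 3 each). Every Notch2 mutant library was below every wild type library for Rbpj, against 1.51% of all genes tested without overlap. It fell by 0.16 ± 0.03 on the log2 scale in Notch2 mutant cells averaged over both Hes1 states (adjusted p = 0.0176, edgeR). Within a single Hes1 state edgeR did not call it, with -0.18 ± 0.04 and adjusted p = 0.0625 with Hes1 loxP and -0.13 ± 0.04 and adjusted p = 0.650 with Hes1 deletion. With Hes1 loxP it was called by DESeq2 (-0.19, adjusted p = 0.0172) and, by edgeR, without the filter (-0.19, adjusted p = 0.0326), without wild type Hes1 deletion replicate 3 (-0.19, adjusted p = 0.0356) and without wild type Hes1 loxP replicate 3 (-0.22, adjusted p = 0.0356). The averaged call was lost with the stromal and osteoblast covariate (-0.14, adjusted p = 0.213), without Notch2 mutant Hes1 deletion replicate 3 (-0.15, adjusted p = 0.0740) and without wild type Hes1 loxP replicate 2 (-0.15, adjusted p = 0.0502, edgeR). With the covariate 1 of all genes was called in that comparison, against 253 without it.

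Of 14 target genes, 6 were tested and none passed in any comparison. The classical targets besides Hes1 were barely counted, with 46 counts for Heyl, 27 for Hey1, 26 for Hes5, 15 for Nrarp and 5 for Hey2 over all 12 libraries. Among those tested, Id1 had a log2 fold change of -0.42 ± 0.11 in Notch2 mutant over wild type averaged over both Hes1 states (adjusted p = 0.0546), and Myc 0.16 ± 0.04 in Hes1 deletion over loxP averaged over both genotypes (adjusted p = 0.242, edgeR). Of 9 other ligands, Dner alone passed the filter, at 3.24 TPM on average, above Dll4 and Jag2 per transcript length, and it was not called in any comparison. Dll3 and Dlk1 were counted 1 time each and Cntn1 and Ccn3 not at all.

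**Figure D4:**
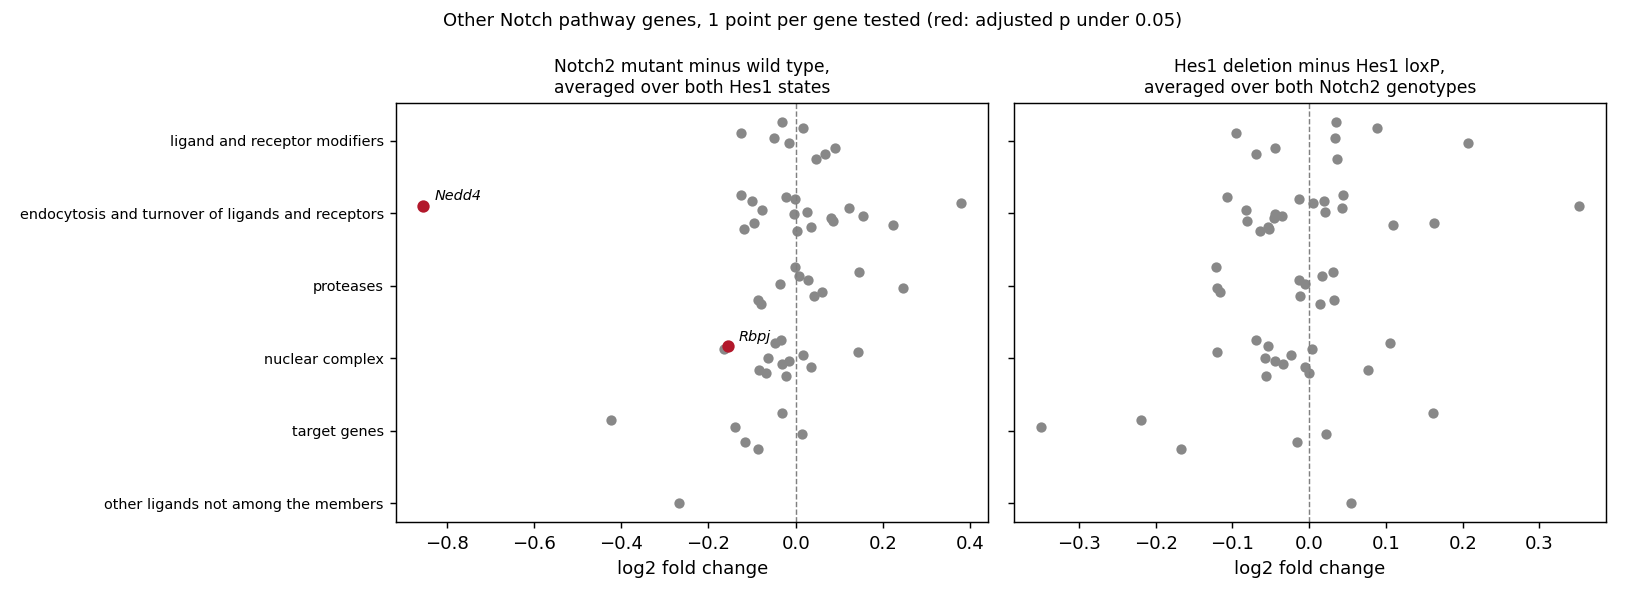
Log2 fold changes (horizontal axes) of the other Notch pathway genes tested, 1 point per gene, in rows by role, for Notch2 mutant minus wild type (left) and Hes1 deletion minus Hes1 loxP (right), each averaged over the other factor; the horizontal scales differ. The red points, Nedd4 at -0.85 and Rbpj at -0.16 in the left panel, are the calls.

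Genes whose log2 CPM followed a member most closely over the 12 libraries were listed among about 10530 genes of sufficient level. For Notch1 these were Slc16a6, with Pearson r = 0.951, Ptpn3 with 0.928 and Manf with 0.928. For Notch2 they were Nfat5 with 0.888, Naa50 with 0.864 and Larp1b with 0.862, and for Jag1 Ephx2 with 0.910, Sik2 with 0.902 and Fam50a with 0.889. For Notch4 the closest gene was Mrpl1 with 0.880, for Dll4 Itgb1 with 0.921 and for Jag2 Mtmr14 with 0.881. With group means removed, the values were 0.927 for Slc16a6 with Notch1, 0.858 for Nfat5 with Notch2 and 0.927 for Ephx2 with Jag1. These are descriptions over 12 libraries that share groups, scaling and depth, and the values of Dll4 and Jag2 rest on few counts.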

How the data were processed

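RNA of 12 osteoclast libraries was prepared with a stranded mRNA kit and sequenced as paired 75-base reads, per the labels' protocols. The authors deposited raw read counts per gene, made with HISAT2, SAMtools, Picard and HTSeq on GRCm38, per the submitters' processing notes, which also name DESeq2. The sources used here give no versions, annotation release or strand setting for these steps. Each table held 55414 gene identifiers and 5 summary rows, which took 15.8% to 19.0% of each table and were left out. GENCODE M21 named 52133 identifiers, and the unnamed ones took up to 0.167% of the counts in a library.

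The 4 group means were fitted over all 12 libraries with edgeR 4.0.16 (R 4.3.3): TMM scaling, filterByExpr (minimum count 10, minimum total 15), quasi-likelihood tests, two-sided, with Benjamini-Hochberg adjustment over 13403 genes and a threshold of 0.05. The fit was tested on simulated data. Standard errors came from the F statistics. CPM used the assigned counts without TMM, and TPM used merged exon lengths. Dll1 and Notch3, below the filter, had exact permutation tests over libraries (SciPy 1.17.1). Alternatives were DESeq2 1.42.0, RLE scaling, no filter, a replicate block, a stromal and osteoblast covariate, the compared groups alone (within one level of the other factor), and each library left out.

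All 8 members are named. Of each other pathway list up to 4 genes with the smallest adjusted p in Notch2 mutant against wild type, averaged over both Hes1 states, are named, besides low-count ligands and targets given for their levels. Genes most like a member are the 3 with the highest Pearson r of log2 CPM (prior count 2, mean of at least 1). The members and lists were chosen with earlier results of these data known. The levels of 1 marker list, which also separated wild type Hes1 loxP libraries from the other groups, are not reported here.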

Additional observations from a re-analysis of the deposited data

How the results depend on the processing

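No receptor or ligand was called in any comparison under DESeq2, RLE scaling, the stromal and osteoblast covariate or the replicate block, nor with the compared groups alone, which was run only for the 4 comparisons within one level of the other factor. Without the filter 1 was called for Notch2 mutant against wild type with Hes1 loxP and 1 averaged over both Hes1 states, Notch1 each time; leaving out single libraries gave 0 to 1 in the averaged comparison. The cause was not tested.

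Counts over all genes moved more. For Notch2 mutant against wild type with Hes1 loxP, DESeq2 called 244 genes, no filter 657, the covariate 1, and leaving out single libraries 26 to 289, against 104. With Hes1 deletion, no filter called 138, the covariate 0 and single-library omission 0 to 5, against 2. Averaged, DESeq2 called 433, no filter 853, the covariate 1 and omission 63 to 319, against 253. For Hes1 deletion against loxP, no filter called 135 in wild type cells and the covariate 4, with 3 to 26 on omission, against 5. In Notch2 mutant cells no filter called 110, the covariate 3 and omission 3 to 6, against 5. Averaged, DESeq2 called 20, no filter 184, the covariate 3 and omission 6 to 16, against 11. For the interaction no filter called 63 and omission 0 to 12, the 12 without wild type Hes1 deletion replicate 3.

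Whether replicate numbers pair the libraries was not settled. Over 18 same-numbered pairs the correlation of deviations from group means ran from -0.090 to 0.107. Between wild type Hes1 loxP and Notch2 mutant Hes1 loxP it was 0.098, 0.107 and 0.077 for same-numbered pairs. For differently numbered pairs of these groups it ran from -0.075 to -0.020. Only 1 same-numbered pair was over 0.1, and 7 of 12 libraries correlated best with their own number. Differently numbered pairs of other groups also exceeded 0.1. Wild type Hes1 deletion replicate 3 had 0.121 with Notch2 mutant Hes1 deletion replicate 2 and 0.105 with Notch2 mutant Hes1 loxP replicate 2. With the replicate block, Notch2 mutant against wild type gave 148 called genes with Hes1 loxP, 2 with Hes1 deletion and 325 averaged. Hes1 deletion against loxP gave 5 in wild type cells, 4 in Notch2 mutant cells and 11 averaged under the block, and the interaction 0.

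Log2 fold changes near 0 changed sign in places. Averaged Notch2 mutant over wild type gave Notch2 -0.0037 without the filter and -0.026 with the covariate, and -0.018 to 0.027 on omission. Jag1 for Hes1 deletion in Notch2 mutant cells was -0.0011 with the covariate and -0.014 to 0.071 on omission. On omission, Jag1 ranged from -0.0061 to 0.049 for Notch2 mutant over wild type with Hes1 loxP. With Hes1 deletion Jag2 ranged from -0.27 to 0.40, Notch4 from -0.045 to 0.12 and Dll4 from -0.035 to 0.71. Averaged over both Hes1 states, Dll4 ranged from -0.24 to 0.13. For Hes1 deletion, Notch4 in wild type cells ranged from -0.13 to 0.00022, Notch1 in Notch2 mutant cells from -0.26 to 0.023, Dll4 in Notch2 mutant cells from -0.58 to 0.042, and Notch2 averaged from -0.0055 to 0.041. The interaction ranged from -0.11 to 0.053 for Notch4 and from -0.046 to 0.23 for Notch1. The Notch3 difference in mean CPM between Hes1 deletion and loxP ranged from -0.0843 to 0.0218.

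With the longest transcript in place of merged exons, Notch2 was at 39.3 and Jag1 at 12.8 TPM, and Notch2 made up 80.1% to 84.8% of the receptors. Notch1 then made up 9.60% to 14.3% of the receptors, against 6.84% to 10.3% with merged exons. Depth limits Dll4, Jag2, Notch3 and Dll1 most, with 3 to 20, 6 to 30, 3 to 9 and 0 to 4 counts per library.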
